A study of Mus musculus with 12 samples.

Results

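Gut-draining and skin-draining lymph nodes were compared in germ-free (GF) mice, animals that live without any microbiota. Of the 12 RNA-seq libraries of the series, the 6 from GF mice enter this comparison: 3 of stromal cells (SCs) from mesenteric lymph nodes (mLN), which drain the gut, and 3 from skin-draining peripheral lymph nodes (pLN). Members were taken by their sample titles. The other 6 libraries, of mLN and pLN SCs of specific pathogen-free (SPF) mice, were used for the estimate of spread and to ask whether a location change depended on housing.

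All mice were BALB/c, and the methods give them as female unless stated otherwise. The GF animals came from a line derived by caesarean section, were kept in isolators and were 6 to 10 weeks old, and the SPF animals, which are colonised but free of listed pathogens, were 7 to 12 weeks old. In the methods the SPF strain is named by CD90.1, an allele of the Thy1 gene, with none given for GF mice, and no genotype is given per library, so housing and colony cannot be told apart. Within GF mice both locations come from animals without microbiota. For these mice the methods allow plastic film isolators and static micro-isolators, in Hannover or Braunschweig, without saying which held the mice of a library. For pLN the inguinal and axillary or popliteal nodes were taken, for mLN those of the small intestine and of colon and caecum. After enzymatic digestion, non-endothelial SCs were sorted as cells lacking CD45, CD24 and CD31 and carrying podoplanin (Pdpn, gp38). Whether a library holds 1 or several mice is not stated, so p-values measure the spread between libraries, which may in part be technical. The source field of the pLN libraries also contains the word mesenteric, and the titles were followed.

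Lymph node SCs build the scaffold on which lymphocytes move. In the T zone, fibroblastic reticular cells (FRCs) secrete Ccl19 and Ccl21a, which guide T cells and dendritic cells through CCR7, and the survival factor Il7. Reticular cells near follicles and below the capsule secrete Cxcl13, which guides B cells. Both depend on lymphotoxin signals from lymphocytes, which reach the nucleus through NF-kappaB proteins. CD34+ SCs form an outer, adventitial layer around vessels and in the capsule and are rich in matrix proteins. Mesenteric nodes lie in visceral mesenchyme and skin-draining nodes in body-wall and limb mesenchyme, which use different developmental transcription factors.

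Expression is given as RPKM (read counts scaled to the length of the exons and to the depth of the library), so levels can be set side by side between genes. Recovered reads amounted to between 4.62 and 14.1 M per library, and between 9319 and 9572 genes reached 1 RPKM in the 6 GF libraries. The shallowest, with 4.62 M reads, was pLN replicate 3. A change is the mean of log2(RPKM + 1) in mLN minus that in pLN with the SE of the limma fit, so a positive change is higher in mLN. This scale understates the change of genes near 1 RPKM. A gene was called when the p adjusted by Benjamini-Hochberg was below 0.05 and the change was 2-fold (1 on the log2 scale) or more. Location separated the 6 libraries along a first principal component that held 87.0% of their variance, with mLN between -41.6 and -32.3 and pLN between 27.8 and 43.3. Pairs of libraries from the same location correlated at 0.983 to 0.993 and pairs across locations at 0.866 to 0.924 (Pearson, across genes, which are not independent replicates).

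The sorted cells carried fibroblast genes in both locations. Pdpn, the marker of the gate, stood at 53.9, 61.4 and 61.3 RPKM in mLN and 74.1, 70.2 and 80.5 RPKM in pLN. The summed level of 10 general fibroblast genes (among them Pdgfra, Col1a2 and Dcn) was 15470 to 17370 RPKM in mLN and 11390 to 15180 RPKM in pLN. Of 14 blood endothelial markers, 10 stayed under the filter of at least 1 RPKM in at least 3 libraries, among them Cdh5 and Kdr. Of 8 lymphatic endothelial markers 6 stayed under it, Prox1 and Lyve1 included. Leukocyte markers, 6 of 16 in the table, summed to 6.56 to 13.9 RPKM in mLN and 7.49 to 16.9 RPKM in pLN, and none of the 4 tested was called. Keratinocyte (0 of 11) and skeletal muscle (0 of 10) markers were not among the genes of the table. Other marker sums did move with location. For perivascular and smooth muscle cells, with 10 of 14 markers in the table, the sum was 50.3 to 136 RPKM in mLN and 581 to 793 RPKM in pLN. That of the blood endothelial markers was 74.4 to 98.1 RPKM in mLN and 158 to 208 RPKM in pLN, with Plvap as the only tested marker lower in mLN and Tek higher. For mesothelium, with 3 of 12 markers, it was 22.5 to 24.3 RPKM in mLN and 7.68 to 8.56 RPKM in pLN, most of it from Wt1 and Ezr. For adipocytes, with 5 of 10, it was 653 to 792 RPKM in mLN and 422 to 549 RPKM in pLN. Cd24a, which encodes the CD24 used to exclude cells in the sort, was at 1.17, 1.01 and 0.891 RPKM in mLN and 3.82, 3.87 and 6.66 RPKM in pLN. The sum of the lymphatic endothelial markers was 346 to 596 RPKM in mLN and 5395 to 6967 RPKM in pLN, nearly all of it from Ccl21a, which reticular cells also express, and the defining markers Prox1 and Lyve1 were near 0. For Schwann cells, with 2 of 9 markers, the sum was 24.9 to 25.3 RPKM in mLN and 13.1 to 16.2 RPKM in pLN, and for erythroid cells, with 4 of 7, it was 5.58 to 7.24 RPKM in mLN and 2.02 to 3.92 RPKM in pLN. The part of these cells in the results was not tested. Since these are bulk libraries, fewer cells of a type and less RNA per cell cannot be told apart for any gene below.

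In GF mice 1117 of 9764 tested genes were called between the locations (11.4%), 446 higher in mLN (4.57%) and 671 lower (6.87%). Over all tested genes the median change was 0.00. Large changes were more often toward pLN: 94 genes were at least 4-fold higher in mLN and 229 at least 4-fold lower, and 13 and 64 genes, respectively, at least 8-fold. At 16-fold or more there were 5 and 9 genes. For 50.2% of all tested genes every mLN library lay on one side of every pLN library. That share is the background against which non-overlap of any single gene should be read. Likewise, the shares of 11.4% called, 4.57% higher and 6.87% lower are the background for the counts of each gene list.

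Genes of positional identity were among those with the largest changes. Tcf21, a helix-loop-helix factor that visceral mesenchyme uses in development, was at 30.6, 40.1 and 31.7 RPKM in mLN and 0.116, 0.156 and 0 RPKM in pLN, a change of 5.00 ± 0.13 (limma adjusted p = 3.95e-13). Nkx2-3, a homeobox factor needed for spleen and gut lymphoid organs, stood at 21.9, 24.9 and 22.1 RPKM in mLN and 0.0669, 0.121 and 0 RPKM in pLN, a change of 4.49 ± 0.11 (limma adjusted p = 3.95e-13). In pLN both genes were close to 0 in each library, with 1 of the 3 listed at 0. Wt1, a zinc finger factor of mesothelium and visceral mesenchyme, also rose in mLN, from 0.846, 1.11 and 1.43 RPKM in the pLN libraries to 11.2, 9.33 and 10.7 RPKM in mLN, a change of 2.43 ± 0.13 (limma adjusted p = 1.68e-09).

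The list of visceral mesoderm factors did not move as a block. Of 9 tested members 3 were higher, 1 was lower and 5 were not called, with a median of 0.60. The one lower in mLN was Foxf1, a forkhead factor of gut mesenchyme, at 5.93, 3.92 and 5.24 RPKM in mLN and 20.2, 12.4 and 12.2 RPKM in pLN (-1.38 ± 0.24, limma adjusted p = 2.37e-04). Gata6 (0.66 ± 0.13) and Meis1 (0.60 ± 0.14) had no overlap between the locations and stayed under 2-fold.

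Toward pLN, Tbx15, a T-box factor of body-wall and limb mesenchyme, was the mirror image of Tcf21. It was listed at 0 in mLN replicates 1 and 2, at 0.0755 RPKM in replicate 3, and at 16.7, 13.1 and 15.02 RPKM in the pLN libraries (-3.95 ± 0.15, limma adjusted p = 7.47e-11). Tbx3, a T-box factor of limb and flank, was at 0.0607, 0.16 and 0.036 RPKM in mLN and 4.24, 3.39 and 1.95 RPKM in pLN, and changed by -1.91 ± 0.17 (limma adjusted p = 2.47e-07). Tbx18 (-1.27) and the homeobox factor Msx1 (-1.27) were lower in mLN as well, so that 4 of 6 tested limb and body-wall factors fell and none rose (median -1.27). Of 9 Hox genes, which encode position along the body axis, 7 were not called. Hoxa10 was higher, at 7.19, 4.43 and 5.35 RPKM in mLN and 1.901, 1.42 and 2.25 RPKM in pLN (1.21 ± 0.19, limma adjusted p = 8.19e-05) and Hoxd9 lower (-1.01 ± 0.16, limma adjusted p = 1.02e-04). The Hoxd9 call ended at -0.93 without mLN replicate 2 and -0.80 without pLN replicate 1.

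**Figure D1:**
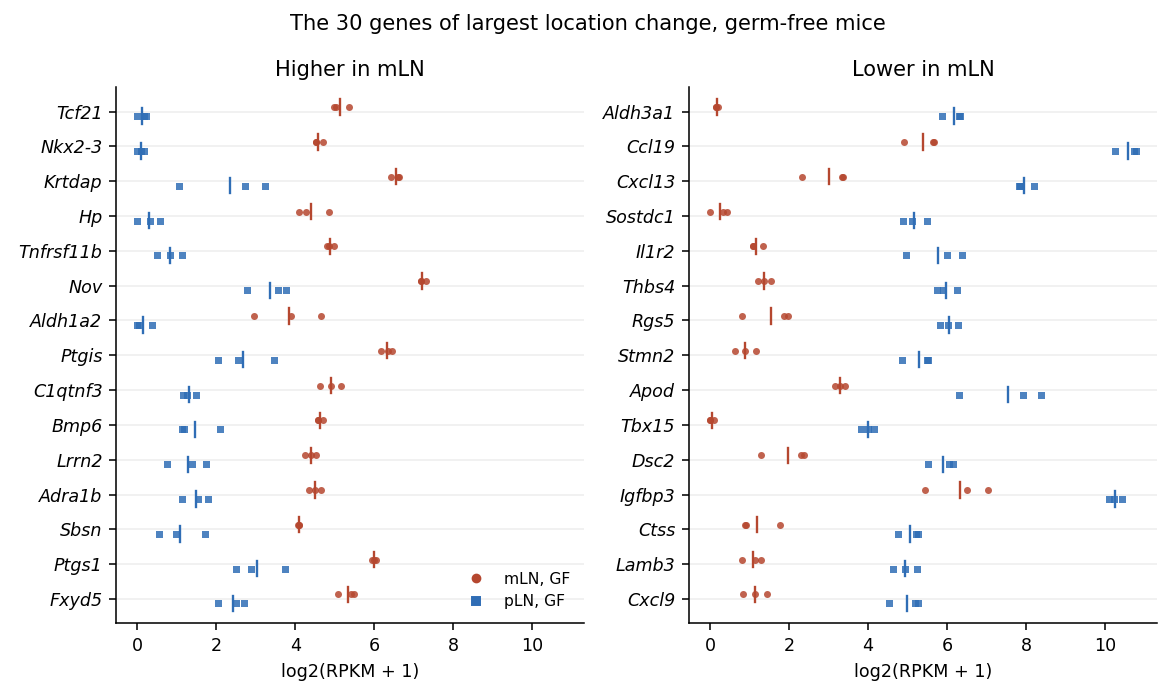
Levels, in GF mice, of 15 genes changed most toward mLN and 15 changed most toward pLN, as log2(RPKM + 1) on the horizontal axis. Each circle is 1 mLN library and each square 1 pLN library (3 each), and short bars are means. Genes were taken only from those whose mLN and pLN libraries did not overlap, so the groups are apart for all 30 by selection. Tcf21 and Nkx2-3 lie near 0 in pLN, and Aldh3a1, Sostdc1 and Tbx15 near 0 in mLN.

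Presence in 1 location and near absence in the other was rare. Only 4 genes were under 0.5 RPKM in all pLN libraries and at 5 RPKM or more in all mLN libraries: Tcf21, Nkx2-3, Hp and Aldh1a2. The reverse held for 6: Aldh3a1, Sostdc1, Tbx15, Kirrel3, Spns3 and Ager. Hp, which encodes the hemoglobin-binding plasma protein haptoglobin, was at 18.1, 27.9 and 15.97 RPKM in mLN and 0.473, 0 and 0.253 RPKM in pLN (4.10 ± 0.23, limma adjusted p = 2.72e-09). Aldh3a1, an aldehyde dehydrogenase best known from the cornea and stomach, was at 0.117, 0.0991 and 0.156 RPKM in mLN and 78.3, 57.8 and 79.4 RPKM in pLN (-6.00 ± 0.13, limma adjusted p = 1.72e-13). In GRCm38, Tbx15 lies on chromosome 3 from 99240381 to 99354259, Hp on chromosome 8 from 109575128 to 109579172, Aldh3a1 on chromosome 11 from 61207537 to 61218421 and Sostdc1 on chromosome 12 from 36314139 to 36318452, all protein-coding.

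Homeostatic chemokines, which position lymphocytes, and survival factors of lymphocytes and other leukocytes were lower in mLN in 10 of 11 tested genes (median -2.44, against 0.00 over all genes). None was higher. The 4 chemokines led. Ccl21a was the most abundant of them, at 585, 338 and 543 RPKM in mLN and 6962, 5384 and 6829 RPKM in pLN, a change of -3.74 ± 0.31 (limma adjusted p = 1.29e-07). Ccl19 stood at 49.4, 28.8 and 48.99 RPKM in mLN and 1706, 1209.5 and 1752 RPKM in pLN (-5.19 ± 0.27, limma adjusted p = 1.196e-09). In mLN, replicate 2 was the lowest library for both. Cxcl13 did not follow that order. It was at 4.04, 9.21 and 9.19 RPKM in mLN and 225, 228 and 293 RPKM in pLN (-4.94 ± 0.25, limma adjusted p = 1.196e-09), with replicate 1 lowest in mLN. Cxcl12, which retains CXCR4-bearing cells, was lower by a smaller step at 259, 90.1 and 199.7 RPKM in mLN and 864, 689 and 746 RPKM in pLN, a change of -2.18 ± 0.27 (limma adjusted p = 9.96e-06). The reads of Ccl21a can be shared with near-identical copies of the gene, so its level is uncertain. Ccl19 and Ccl21a lie close together on chromosome 4 of GRCm38, from 42754525 to 42756577 and from 42772860 to 42773993.

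The survival factors fell with them. Il7, which keeps naive T cells alive, was at 5.26, 2.38 and 4.97 RPKM in mLN and 61.6, 36.8 and 51.9 RPKM in pLN (-3.32 ± 0.22, limma adjusted p = 1.26e-08). Tnfsf13b, the B cell survival factor BAFF, was at 12.9, 9.45 and 10.2 RPKM in mLN and 96.1, 62.6 and 72.9 RPKM in pLN (-2.71 ± 0.16, limma adjusted p = 3.13e-09). Kitl (-2.44), the ligand of the receptor KIT, Il34 (-2.19), a ligand of the macrophage receptor CSF1R, Flt3l (-1.11), which feeds dendritic cell precursors, and Il15 (-1.05), which maintains NK cells, were lower too, with limma adjusted p between 1.11e-08 and 2.67e-04. The call of Il15 ended at -0.90 without mLN replicate 1 and -0.87 without pLN replicate 1. Csf1, the other ligand of CSF1R, was the only member that was not called, at 139, 123 and 132 RPKM in mLN and 131, 114 and 109.9 RPKM in pLN (0.15 ± 0.11). Its level was above that of Il34 in each of the 6 libraries.

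The main receptors of lymphotoxin and TNF changed little, and many genes listed here as their signals or targets were lower in mLN. Whether signalling itself differed was not tested. Ltbr, the lymphotoxin beta receptor, was at 34.5, 36.4 and 36.2 RPKM in mLN and 37.8, 41.8 and 35.5 RPKM in pLN (-0.10 ± 0.12), and Tnfrsf1a, the main TNF receptor, at 93.2, 98.6 and 94.4 RPKM in mLN and 109, 105 and 104 RPKM in pLN (-0.15 ± 0.11). Neither was called. All 5 tested target genes were lower in mLN. Madcam1, an adhesion molecule of marginal reticular cells, was at 5.33, 3.42 and 6.004 RPKM in mLN and 22.2, 16.3 and 20.7 RPKM in pLN (-1.83 ± 0.24, limma adjusted p = 1.78e-05). Vcam1, a ligand of lymphocyte integrins, was at 61.4, 33.5 and 59.3 RPKM in mLN and 342, 241 and 321 RPKM in pLN (-2.56 ± 0.20, limma adjusted p = 7.78e-08). Enpp2 (-2.63), which encodes autotaxin, Mfge8 (-2.54), which bridges dying cells to phagocytes, and Icam1 (-1.54) completed the group.

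Among 12 signal genes 6 fell and none rose. They were Nfkbie (-2.68), Nfkbia (-1.01) and Tnfaip3 (-1.43), which restrain NF-kappaB and are themselves induced by it, Nfkb2 (-1.32) and Map3k14 (-1.25) of the noncanonical arm used by the lymphotoxin beta receptor, and the adaptor Traf1 (-1.73). Relb, the partner of Nfkb2, had a change of -0.99 ± 0.12 and missed the 2-fold threshold. Nfkbia lay at 254, 237 and 264 RPKM in mLN and 498, 526 and 504 RPKM in pLN, just inside that threshold. Without mLN replicate 2 its change was -0.97 and without pLN replicate 2 -0.99, so the call ended in both cases. Tnfrsf11b went the other way. It encodes osteoprotegerin, the soluble decoy receptor of RANKL, and was at 27.8, 26.6 and 30.6 RPKM in mLN and 1.203, 0.407 and 0.784 RPKM in pLN (4.05 ± 0.18, limma adjusted p = 1.97e-10). Tnfrsf12a, the receptor of the cytokine TWEAK, was higher too (1.96 ± 0.25, limma adjusted p = 1.11e-05). Over the 26 tested genes of the axis 2 were higher, 13 lower and 11 not called (median -1.003).

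The promoters of these genes often hold the kappaB consensus, the stretch of 10 bases that NF-kappaB dimers bind. RefSeq sequences of the 250 bases before each annotated start (GRCm38.p6) were searched on both strands. Of the 13 genes of the axis that were lower in mLN 11 had a promoter sequence, and 6 of these 11 held a match. Among the 11 axis genes not called, 7 had a promoter sequence and 2 of these 7 held a match. Over all tested genes of the axis the count was 8 of 19. The list includes genes that NF-kappaB induces, and a link of the match to the location change was not tested. The consensus was present in 5.58% of the 7580 tested genes with a promoter sequence and in 4.46% of all 27025 such genes. Of those called higher in mLN it was present in 17 of 329 (5.17%), and of those called lower in 59 of 476 (12.4%). The sequences below are those of 5 genes of the axis called lower in mLN, printed on the strand of the gene with each match in capitals, because they show where the match lies.
Nfkb2: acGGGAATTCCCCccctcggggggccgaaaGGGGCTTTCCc
Nfkbia: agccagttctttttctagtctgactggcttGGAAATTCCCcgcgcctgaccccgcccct
Nfkbie: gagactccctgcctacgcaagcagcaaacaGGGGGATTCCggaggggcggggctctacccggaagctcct
Ltb: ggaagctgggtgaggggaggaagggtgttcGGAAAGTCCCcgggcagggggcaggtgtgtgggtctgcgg
Madcam1: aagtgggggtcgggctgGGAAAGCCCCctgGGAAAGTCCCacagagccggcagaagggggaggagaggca

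The Nfkb2 stretch lies at chr19:46304696-46304736 (plus strand), that of Nfkbia at chr12:55492648-55492706 (minus strand), that of Nfkbie at chr17:45555564-45555633 (plus strand), that of Ltb at chr17:35194390-35194459 (plus strand) and that of Madcam1 at chr10:79664459-79664528 (plus strand). The stretches of Nfkb2 and Madcam1 hold a pair of separate matches. A match is a description of the letters and was not tested as a binding site.

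Antigen presentation genes were lower in mLN almost throughout. Of 22 tested MHC genes 16 fell, 6 were not called and none rose (median -1.57). All 5 class II genes fell, although class II is best known from professional antigen-presenting cells. H2-Ab1, a class II beta chain, was at 9.41, 4.76 and 8.004 RPKM in mLN and 132, 107 and 109 RPKM in pLN (-3.84 ± 0.26, limma adjusted p = 1.71e-08). Cd74, the invariant chain that escorts class II, was at 22.6, 13.2 and 23.2 RPKM in mLN and 235, 225 and 234 RPKM in pLN, a change of -3.53 ± 0.22 (limma adjusted p = 7.84e-09). The sums of leukocyte markers, given above, overlapped between the locations but rest on 6 of 16 markers. A part of leukocytes in the class II change was not tested.

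Class I genes fell in 11 of 17, from the chains themselves to the machinery that loads them. B2m, the light chain of every class I molecule, was at 1377, 1107 and 1363 RPKM in mLN and 5209, 4626 and 6134 RPKM in pLN (-2.05 ± 0.15, limma adjusted p = 3.64e-08). H2-K1, a classical heavy chain, was at 227, 179 and 211 RPKM in mLN and 829.9, 714 and 743 RPKM in pLN (-1.89 ± 0.12, limma adjusted p = 7.303e-09). Tap1 (-1.69), which pumps peptides into the endoplasmic reticulum, and the immunoproteasome subunits Psmb8 (-1.62), Psmb9 (-1.70) and Psmb10 (-1.08) were lower with them. Reads of H2 genes can be shared between near-identical members, so single H2 values are uncertain.

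Of the 16 MHC genes lower in mLN 14 had a promoter sequence, and 7 of the 14 held the kappaB consensus, 6 of them on chromosome 17. Among the 6 MHC genes not called, 4 had a promoter sequence and 1 of the 4 held the consensus. The H2-K1 and H2-D1 stretches below are nearly identical, so these counts are not of independent promoters. A link of the match to the location change was not tested. The consensus is shown for H2-K1 and H2-D1 because this element is part of the enhancer that classical class I genes share. H2-Q4 and the light chain gene B2m are set beside them.
H2-K1: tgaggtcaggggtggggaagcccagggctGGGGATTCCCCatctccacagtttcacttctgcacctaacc
H2-D1: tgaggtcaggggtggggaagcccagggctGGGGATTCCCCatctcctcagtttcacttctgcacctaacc
H2-Q4: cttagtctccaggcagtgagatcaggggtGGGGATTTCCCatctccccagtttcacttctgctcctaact
B2m: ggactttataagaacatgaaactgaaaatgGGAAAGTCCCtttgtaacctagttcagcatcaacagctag

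The stretches lie at chr17:34000418-34000487 (minus strand) for H2-K1, chr17:35262894-35262963 (plus strand) for H2-D1, chr17:35379414-35379483 (plus strand) for H2-Q4 and chr2:122147531-122147600 (plus strand) for B2m. Those of H2-K1 and H2-D1 hold the same capital letters, while H2-Q4 and B2m hold variants. H2-D1 was at 493, 399 and 465 RPKM in mLN and 1373, 1225 and 1296 RPKM in pLN (-1.52 ± 0.11, limma adjusted p = 3.61e-08) and H2-Q4 fell as well (-1.76 ± 0.14, limma adjusted p = 9.93e-08).

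Interferon response genes moved less than MHC genes. Of 35 tested 10 were lower in mLN, 1 was higher and 24 were not called, with a median of -0.43. Several of the lower ones are induced by interferon gamma. Iigp1, a GTPase of cell-autonomous defence, was at 15.8, 7.54 and 13.4 RPKM in mLN and 74.1, 60.8 and 72.9 RPKM in pLN (-2.46 ± 0.22, limma adjusted p = 3.21e-07). Irf8 (-2.91), Tgtp2 (-1.97), Gbp4 (-1.05) and the receptor chain Ifngr1 (-1.35) were lower too, as were Usp18 (-1.76) and Ifi44 (-1.15) of the type I response. Other genes of that response, such as Ifit1 at 7.93, 6.99 and 9.93 RPKM in mLN and 7.69, 13.2 and 9.73 RPKM in pLN (-0.25 ± 0.17) and Ifit2 (0.81 ± 0.14), were not called. Ifi27l2a, at 350.2, 567 and 508 RPKM in mLN and 117, 309 and 256 RPKM in pLN, was the 1 member higher in mLN (1.14 ± 0.32, limma adjusted p = 0.0108). The change of Ifi44 was -0.997 under quantile normalization, where its call ended. The calls of Ifi27l2a and Gbp4 were sensitive to single libraries, with Ifi27l2a at 0.73 without pLN replicate 1 and Gbp4 at -0.84 without mLN replicate 2 and -0.93 without pLN replicate 1.

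An ISRE-like motif, GAAANNGAAA on either strand, was present in the promoters of 14 of the 28 interferon response genes with a sequence, against 3.11% of tested genes. It did not separate those lower in mLN (3 of 6) from those not called (11 of 22). The stretches of 2 of the lower genes, and of B2m because its promoter holds both motifs, are given with the match in capitals.
Igtp: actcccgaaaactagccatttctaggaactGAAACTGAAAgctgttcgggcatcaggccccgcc
Tgtp2: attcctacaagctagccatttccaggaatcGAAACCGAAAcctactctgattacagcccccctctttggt
B2m: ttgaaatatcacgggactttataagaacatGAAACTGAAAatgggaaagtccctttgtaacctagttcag

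They lie at chr11:58199492-58199555 (plus strand) for Igtp, at chr11:49064243-49064312 (minus strand) for Tgtp2 and at chr2:122147518-122147587 (plus strand) for B2m, where the kappaB match follows a few bases later. Igtp, another immunity-related GTPase, had a change of -1.26 ± 0.14 (limma adjusted p = 2.11e-06).

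Inflammatory chemokines, which draw effector cells, were lower in mLN in 8 of 11, while all 3 tested scavenging receptors, which remove chemokines, were higher. Cxcl9, a ligand of CXCR3 on activated T cells, was at 1.21, 0.786 and 1.699 RPKM in mLN and 37.5, 21.9 and 35.7 RPKM in pLN (-3.86 ± 0.18, limma adjusted p = 5.002e-10). Cxcl10, a second CXCR3 ligand, was at 29.9, 11.3 and 16.3 RPKM in mLN and 77.6, 138 and 119.8 RPKM in pLN, a change of -2.55 ± 0.26 (limma adjusted p = 1.26e-06). The monocyte chemokines Ccl2 (-1.91) and Ccl7 (-1.98) were lower, as were Cx3cl1 (-2.79), Cxcl16 (-1.89), Ccl9 (-2.92) and Cxcl2 (-1.25). In contrast, Ackr4, which removes Ccl19 and Ccl21a, was at 9.94, 6.93 and 8.38 RPKM in mLN and 0.235, 0.725 and 0.322 RPKM in pLN (2.73 ± 0.20, limma adjusted p = 4.01e-08). Ackr3, which removes Cxcl12, was at 176, 221 and 218 RPKM in mLN and 28.8, 62.6 and 50.6 RPKM in pLN (2.15 ± 0.22, limma adjusted p = 9.48e-07), and Ackr2, which removes inflammatory CC chemokines, rose as well (1.37 ± 0.28, limma adjusted p = 0.00123), a call that ended at 0.98 without pLN replicate 1. Ccl20, the ligand of CCR6, was in the table but stayed under the filter, at 0.071, 0 and 0 RPKM in mLN and 0.746, 0.987 and 0.718 RPKM in pLN.

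Cytokine receptors of the IL-1 and IL-6 families fell in 5 of 9, and none of the 3 tested ligands was called. Il1r2, the decoy receptor of interleukin 1, was at 1.13, 1.11 and 1.54 RPKM in mLN and 30.02, 82.4 and 62.3 RPKM in pLN, a change of -4.60 ± 0.29 (limma adjusted p = 7.303e-09). The signalling receptor Il1r1 was lower by less, at 23.9, 18.3 and 21.1 RPKM in mLN and 62.4, 42.2 and 50.2 RPKM in pLN (-1.24 ± 0.22, limma adjusted p = 3.66e-04). Il11ra1 (-1.81), Lifr (-1.51) and Osmr (-1.04), receptors of cytokines that signal through gp130, followed, and Osmr was at -0.94 without pLN replicate 1, short of 2-fold. Il6 itself was at 80.4, 72.6 and 77.9 RPKM in mLN and 67.4, 195 and 168 RPKM in pLN, where pLN replicate 1 lay below the 3 mLN libraries and the other pLN libraries above them (-0.75 ± 0.28).

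**Figure D2:**
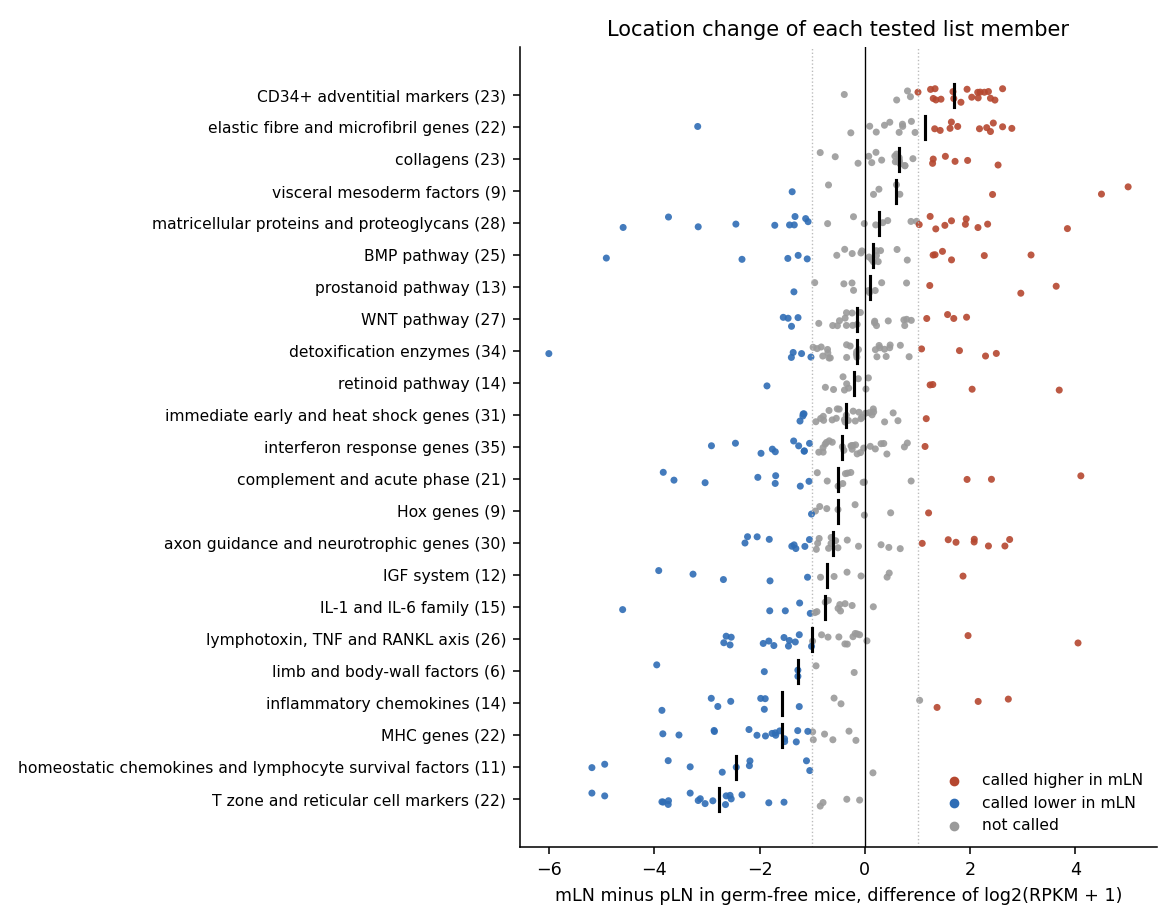
Location change in GF mice (difference of log2(RPKM + 1), horizontal) of every tested member of 23 gene lists, with the number tested in parentheses. Points are genes coloured by call, black bars are list medians, and dotted lines mark 2-fold. Medians run from -2.77 for T zone and reticular cell markers to 1.69 for CD34+ adventitial markers, and most lists hold members on both sides of 0.

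Markers of CD34+ SCs ran the other way. They were higher in mLN in 19 of 23, with none lower (median 1.69). Cd34, the surface sialomucin that names these cells, was at 578, 568 and 585 RPKM in mLN and 143, 295 and 224 RPKM in pLN (1.45 ± 0.20, limma adjusted p = 2.37e-05). Cd248, the endosialin of adventitial fibroblasts, was at 655, 844 and 726 RPKM in mLN and 85.6, 209.9 and 129 RPKM in pLN (2.47 ± 0.27, limma adjusted p = 1.95e-06). Pi16, a marker of fibroblasts of the outer vessel wall, was at 465, 602 and 539 RPKM in mLN and 91.3, 265 and 137 RPKM in pLN (1.83 ± 0.34, limma adjusted p = 4.77e-04). In pLN, replicate 2 was the highest library for all 3 genes and replicate 1 the lowest. The list of T zone and reticular cell markers had the opposite direction, with 18 of 22 lower and none higher (median -2.77). Several of its members also stand in the chemokine and lymphotoxin lists.

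Elastic fibres, which let vessels and capsules recoil, consist of an elastin core on a scaffold of microfibrils. Of 22 tested genes of this kind 11 were higher in mLN, 1 was lower and 10 were not called (median 1.14). Fbn1, the fibrillin of microfibrils, was at 537, 435 and 496 RPKM in mLN and 63.3, 105 and 72.9 RPKM in pLN (2.62 ± 0.16, limma adjusted p = 5.48e-09). Mfap5, a protein bound to fibrillin, was at 732, 842 and 839 RPKM in mLN and 87.3, 225 and 181 RPKM in pLN (2.39 ± 0.26, limma adjusted p = 2.26e-06). Eln, elastin itself, was at 249.7, 199 and 211 RPKM in mLN and 90.4, 97.4 and 73.8 RPKM in pLN, a change of 1.33 ± 0.13 (limma adjusted p = 8.598e-07). The fibulins Fbln2 (2.79), Fbln5 (2.31) and Fbln1 (1.43), Efemp1 (2.44) and the crosslinking enzymes Loxl1 (1.76) and Loxl2 (1.62) were higher too. Ltbp2, which binds fibrillin and is found with elastic fibres, was the exception at 2.09, 1.52 and 1.67 RPKM in mLN and 30.2, 20.9 and 21.4 RPKM in pLN (-3.18 ± 0.16, limma adjusted p = 8.92e-10).

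Collagens changed less. Of 23 tested 17 were not called, 6 were higher in mLN and none was lower (median 0.65). The fibril-forming chain Col1a2 was at 1921, 1817 and 1763 RPKM in mLN and 1828, 2365 and 1864 RPKM in pLN (-0.13 ± 0.11) and Col3a1 at 5430.4, 4728 and 4747 RPKM in mLN and 2749, 4256 and 3125 RPKM in pLN (0.58 ± 0.17), with overlapping groups for Col1a2. Col4a5, a basement membrane chain, had the largest change, from 0.703, 1.64 and 1.17 RPKM in pLN to 13.6, 9.84 and 10.9 RPKM in mLN (2.53 ± 0.24, limma adjusted p = 6.62e-07). Col8a1 (1.95), Col5a3 (1.71), Col8a2 (1.53), Col14a1 (1.30) and Col15a1 (1.29) were the others. The call of Col15a1 ended at 0.89 without pLN replicate 1.

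Matricellular proteins, which sit in the matrix and signal to cells, divided between the locations. Of 28 tested members, small proteoglycans included, 10 were higher in mLN and 10 lower. Nov, a CCN family protein, was at 143, 144 and 156 RPKM in mLN and 5.86, 12.5 and 10.8 RPKM in pLN (3.85 ± 0.21, limma adjusted p = 1.72e-09). Fn1, fibronectin, was at 1205, 1021 and 1095 RPKM in mLN and 273, 324 and 276 RPKM in pLN (1.93 ± 0.11, limma adjusted p = 4.22e-09). Tnxb and Tnc, a pair of tenascins, went opposite ways: Tnxb was higher at 91.1, 102 and 92.6 RPKM in mLN and 13.9, 25.6 and 16.5 RPKM in pLN (2.33 ± 0.23, limma adjusted p = 9.68e-07) and Tnc lower at 3.16, 1.44 and 2.31 RPKM in mLN and 21.01, 13.5 and 16.1 RPKM in pLN (-2.45 ± 0.20, limma adjusted p = 1.23e-07). Among thrombospondins Thbs4 was far lower, at 1.89, 1.59 and 1.32 RPKM in mLN and 57.99, 75.6 and 52.9 RPKM in pLN (-4.59 ± 0.17, limma adjusted p = 5.89e-11), Thbs2 was lower (-1.43) and Thbs3 higher (1.65). Proteoglycans divided likewise, with Fmod (-3.17), Prelp (-1.34) and Bgn (-1.08) lower and Lum (1.35), Aspn (1.24) and Podn (1.03) higher. Podn was close to the threshold, at 0.96 without mLN replicate 2 and 0.93 without pLN replicate 1 and 0.88 without pLN replicate 3, where its call ended. Dcn, the most abundant of them, was at 6071, 5158 and 5791 RPKM in mLN and 4298, 5196 and 5286 RPKM in pLN and was not called.

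Axon guidance genes, which also steer vessels and migrating cells, were divided by role. Of 12 tested ligands 8 were higher in mLN and 2 lower (median 1.66), whereas of 18 tested receptors none was higher and 7 were lower (median -0.88). Slit2, a ligand of Robo receptors, was at 9.503, 8.38 and 8.45 RPKM in mLN and 0.237, 0.902 and 0.298 RPKM in pLN (2.75 ± 0.19, limma adjusted p = 1.71e-08). Slit3 was more abundant, at 162, 137 and 138 RPKM in mLN and 29.6, 41.6 and 30.8 RPKM in pLN (2.08 ± 0.13, limma adjusted p = 8.43e-09). Their receptors were lower in mLN: Robo2 was at 1.48, 0.632 and 1.31 RPKM in mLN and 12.2, 7.52 and 8.496 RPKM in pLN (-2.28 ± 0.20, limma adjusted p = 2.14e-07) and Robo1 changed by -1.05 ± 0.18 (limma adjusted p = 2.67e-04). The call of Robo1 ended at -0.95 without mLN replicate 2 and -0.88 without pLN replicate 1.

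Class 3 semaphorins, which signal through neuropilins and plexins, did not move together. Sema3c was at 122, 100.0 and 105 RPKM in mLN and 11.4, 30.9 and 24.1 RPKM in pLN (2.35 ± 0.27, limma adjusted p = 4.03e-06), and Sema3d (2.66) and Sema3e (1.73) were higher as well. Sema3f was lower, at 1.84, 0.707 and 1.48 RPKM in mLN and 11.2, 8.32 and 9.92 RPKM in pLN (-2.23 ± 0.17, limma adjusted p = 3.92e-08), as was Sema3b (-1.14). The plexins Plxnb1 (-1.82), Plxnd1 (-1.39) and Plxna2 (-1.31), the netrin receptor Unc5c (-2.05) and the neurotrophin receptor Ntrk2 (-1.34) were lower in mLN. The netrins themselves were higher, with Ntn4 at 40.3, 44.2 and 43.6 RPKM in mLN and 6.57, 12.5 and 9.89 RPKM in pLN (2.08 ± 0.16, limma adjusted p = 6.36e-08) and Ntn1 at 1.58.

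**Figure D3:**
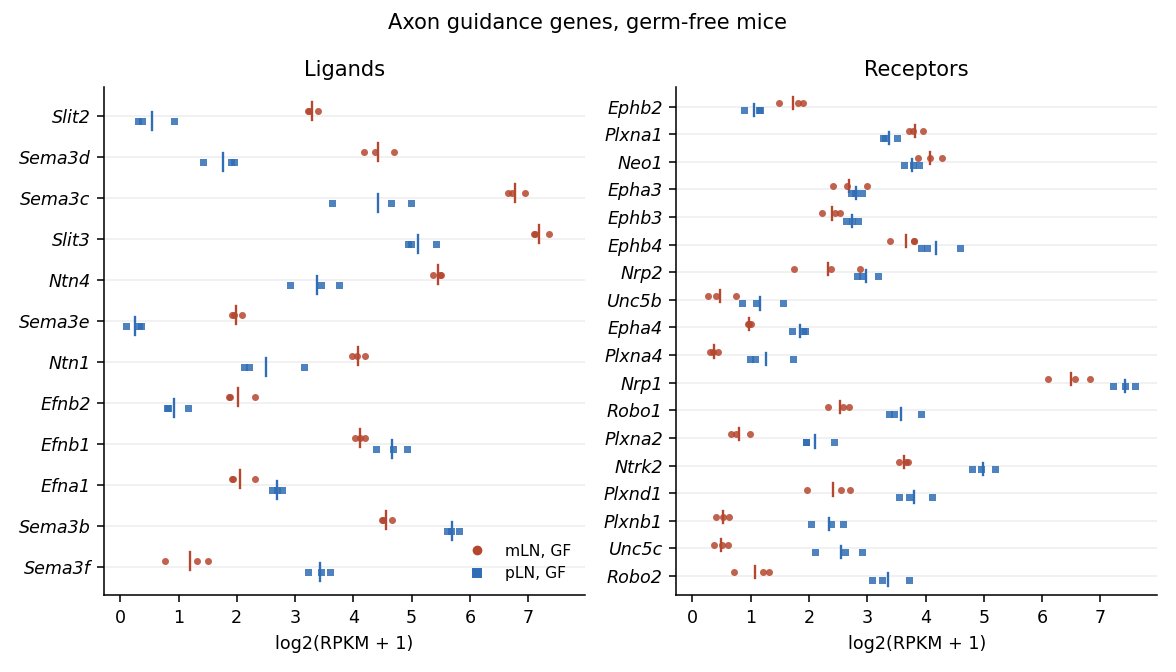
Levels of 12 ligands and 18 receptors of axon guidance in the GF libraries, as log2(RPKM + 1), ordered by location change. Circles are mLN libraries, squares pLN libraries (3 each) and short bars means. The 8 ligands called higher lie to the right in mLN, and the 7 receptors called lower lie to the right in pLN.

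Retinoic acid, made from retinal and known for imprinting gut-homing receptors on lymphocytes, had 3 of its 4 tested synthesis genes higher in mLN, and Rdh10, which makes retinal from retinol, was not called (-0.31 ± 0.15). Aldh1a2 was at 6.68, 24.01 and 13.9 RPKM in mLN and 0.0312, 0.282 and 0 RPKM in pLN (3.69 ± 0.33, limma adjusted p = 2.67e-07), with replicate 1 lowest and replicate 2 highest in mLN. Aldh1a3 was more abundant in both locations, at 69.2, 50.3 and 57.2 RPKM in mLN and 9.24, 18.4 and 14.3 RPKM in pLN (2.04 ± 0.19, limma adjusted p = 3.89e-07), and Aldh1a1 rose as well (1.24 ± 0.23, limma adjusted p = 4.204e-04), although its call ended at 0.96 without pLN replicate 1. Rbp4, the plasma carrier of retinol, was higher too (1.29). Cyp26b1, which breaks retinoic acid down, was lower, at 2.12, 2.62 and 2.21 RPKM in mLN and 13.7, 9.296 and 10.5 RPKM in pLN (-1.86 ± 0.17, limma adjusted p = 4.200e-07). In all 4 of 14 tested members rose and 1 fell, and none of the 5 tested members listed under receptors was called.

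Prostanoids are lipid signals made from arachidonic acid by cyclooxygenases. Ptgs1, the constitutive cyclooxygenase, was at 62.5, 60.3 and 65.05 RPKM in mLN and 4.63, 12.2 and 6.29 RPKM in pLN (2.96 ± 0.21, limma adjusted p = 2.74e-08), and Ptgis, which makes prostacyclin from its product, at 70.2, 86.6 and 79.5 RPKM in mLN and 3.08, 9.98 and 4.84 RPKM in pLN (3.63 ± 0.26, limma adjusted p = 3.15e-08). Ptgir, the prostacyclin receptor, went the other way at 6.59, 4.99 and 4.72 RPKM in mLN and 18.5, 13.1 and 14.6 RPKM in pLN, a change of -1.35 ± 0.14 (limma adjusted p = 1.599e-06). The inducible cyclooxygenase Ptgs2 was at 40.4, 42.2 and 35.3 RPKM in mLN and 24.9, 41.1 and 38.6 RPKM in pLN with overlapping groups (0.20 ± 0.25). Tbxa2r, the thromboxane receptor, was higher in mLN (1.23). Thus 3 of 13 tested members rose and 1 fell, against 4.57% and 6.87% of all tested genes.

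BMP ligands divided between the locations. Bmp6 was at 22.9, 25.2 and 22.8 RPKM in mLN and 1.26, 3.23 and 1.199 RPKM in pLN (3.16 ± 0.21, limma adjusted p = 1.503e-08) and Bmp7 rose too (2.27 ± 0.25, limma adjusted p = 2.17e-06), while Bmp4 (-1.27) and Bmp3 (-1.10) were lower. Bmp3 was at -0.98 without pLN replicate 1, short of 2-fold. Antagonists divided likewise. Sostdc1, which blocks BMP and WNT ligands, was at 0.345, 0 and 0.256 RPKM in mLN and 43.9, 28.5 and 33.8 RPKM in pLN (-4.91 ± 0.16, limma adjusted p = 1.96e-11). Grem1, a BMP antagonist of reticular cells, was at 6.64, 4.36 and 6.08 RPKM in mLN and 34.3, 29.99 and 33.03 RPKM in pLN (-2.33 ± 0.15, limma adjusted p = 1.12e-08), and Chrdl1 was lower (-1.46), whereas Chrd (1.47), Nbl1 (1.65) and Fstl1 (1.30) were higher. None of the 4 receptors and 4 target genes tested was called. With Gdf10 (1.33), 6 of 25 rose and 5 fell.

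WNT genes gave 4 higher and 4 lower of 27, against 4.57% and 6.87% of all tested genes. Rspo3, which amplifies WNT signals, was at 11.6, 10.2 and 9.82 RPKM in mLN and 3.28, 2.77 and 2.63 RPKM in pLN (1.57 ± 0.18, limma adjusted p = 3.54e-06), and Sfrp4 (1.69), Fzd4 (1.93) and Wnt2 (1.18) were higher too. Wnt6 (-1.46), Ror1 (-1.39), Dkk2 (-1.27) and Nkd1 (-1.55) were lower. Binding proteins of the IGF system fell in 5 of 8. Igfbp3, which carries IGFs, was at 130.1, 42.2 and 90.3 RPKM in mLN and 1366, 1093 and 1188 RPKM in pLN (-3.92 ± 0.29, limma adjusted p = 4.36e-08), and Igfbp2 was at 3.01, 2.01 and 3.23 RPKM in mLN and 47.5, 26.6 and 32.8 RPKM in pLN (-3.26 ± 0.26, limma adjusted p = 8.08e-08). Igfbp6 was the 1 member that rose (1.86 ± 0.26, limma adjusted p = 3.08e-05).

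Among 21 complement and acute phase genes 8 fell in mLN and 3 rose. Clu, the chaperone clusterin, was at 371, 228 and 363 RPKM in mLN and 5197, 3667 and 4677 RPKM in pLN (-3.83 ± 0.23, limma adjusted p = 4.92e-09). C3, the central complement component, was at 2125, 1403 and 1716 RPKM in mLN and 3829.9, 3372 and 3604 RPKM in pLN (-1.06 ± 0.15, limma adjusted p = 4.08e-05), and C4b (-2.03) and C2 (-1.69) were lower too. The call of C3 ended at -0.91 without mLN replicate 2 and at -0.15 under quantile normalization. Cd55, which protects cells from complement, was higher at 120.1, 109.6 and 128 RPKM in mLN and 25.9, 29.7 and 35.9 RPKM in pLN (1.94 ± 0.14, limma adjusted p = 2.14e-08). Detoxification enzymes gave 4 higher and 5 lower of 34, Aldh3a1 included, against 4.57% and 6.87% of all tested genes. Fmo2, a flavin monooxygenase, was at 142, 115 and 128 RPKM in mLN and 22.4, 22.02 and 21.03 RPKM in pLN (2.50 ± 0.11, limma adjusted p = 1.67e-10), and Ugt1a6a (2.29) and Ces1d (1.80) were higher, against Cyp1b1 (-1.40) and Adh1 (-1.36) lower. Members of the Ugt1a locus share exons, so the value of Ugt1a6a is uncertain.

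Further genes with large changes belong to none of these groups. Higher in mLN were Krtdap, known from keratinocyte differentiation, at 84.2, 97.8 and 96.2 RPKM in mLN and 1.08, 8.39 and 5.59 RPKM in pLN (4.21 ± 0.36, limma adjusted p = 1.79e-07), and Sbsn, known from the same tissue and also on chromosome 7, at 16.1, 15.8 and 16.1 RPKM in mLN and 0.46, 2.25 and 0.968 RPKM in pLN (3.01 ± 0.21, limma adjusted p = 1.69e-08). C1qtnf3 (3.59), a secreted relative of complement C1q, Lrrn2 (3.09), Adra1b (3.02), an adrenergic receptor, and Fxyd5 (2.91) were higher as well. Lower in mLN were Stmn2, a microtubule regulator of neurons, at 1.22, 0.54 and 0.848 RPKM in mLN and 45.05, 27.8 and 44.3 RPKM in pLN (-4.41 ± 0.18, limma adjusted p = 1.43e-10), and Apod, a lipid carrier, at 7.88, 8.698 and 9.74 RPKM in mLN and 77.9, 330.1 and 242 RPKM in pLN (-4.25 ± 0.38, limma adjusted p = 2.81e-07). Dsc2 (-3.93), a desmosomal cadherin, Lamb3 (-3.87), a laminin chain, and Ctss (-3.88), the lysosomal protease cathepsin S, were lower too.

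Perivascular and smooth muscle genes were lower in mLN in 8 of 10 tested. Rgs5, a pericyte marker, was at 2.68, 0.739 and 2.89 RPKM in mLN and 76.5, 55.4 and 63.5 RPKM in pLN (-4.49 ± 0.31, limma adjusted p = 1.85e-08), and Acta2, smooth muscle actin, which reticular cells also express, at 34.5, 11.5 and 33.1 RPKM in mLN and 158, 105 and 130.5 RPKM in pLN (-2.40 ± 0.30, limma adjusted p = 1.07e-05). Immediate early and heat shock genes, which respond to tissue digestion, were called in 5 of 31, against 11.4% of all tested genes. Hspa1a, at 98.9, 48.1 and 68.9 RPKM in mLN and 151, 173 and 168 RPKM in pLN (-1.23 ± 0.31, limma adjusted p = 0.00488), was among the 4 lower in mLN. The Hspa1a call ended at -0.98 without mLN replicate 2. The summed level of that list was 9022 to 9406 RPKM in mLN and 11780 to 13280 RPKM in pLN, and its part in the results was not tested.

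Markers that the study assigned to stromal subsets from its single-cell libraries divided by subset. Of 94 tested markers of Ccl19+Il7+ FRCs, 80 were lower in mLN (85.1%) and 1 was higher, with a median change of -2.27. Of 96 markers of CD34+Ackr3+ SCs, 77 were higher (80.2%) and none lower (median 1.69). CD34+CD248+ markers followed with 61 of 98 higher and none lower, and CD34+Aldh1a2+ markers with 38 of 96 higher and 2 lower. Markers of metabolically active FRCs (56 of 89, 62.9%) and LTo-like SCs (52 of 91, 57.1%) were mostly lower. Those of Cxcl9+ FRCs were evenly divided, with 18 higher and 20 lower of 98. Markers of Cdk1+ cycling progenitors were called in 5 of 54, against 11.4% of all tested genes. The markers were derived by the study between subsets of SCs of mLN from SPF mice, so for pLN they are applied to nodes that did not define them.

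**Figure D4:**
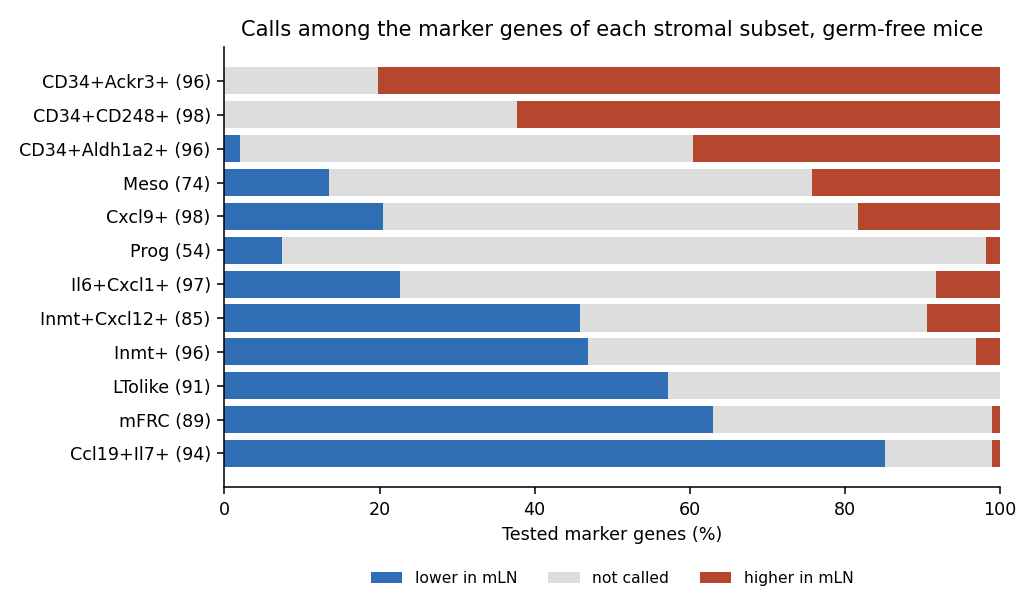
Share of tested marker genes of each stromal subset that were called lower in mLN (left), not called (middle) or higher in mLN (right) in GF mice, with the number tested in parentheses. Ccl19+Il7+ markers have the largest lower share (85.1%) and CD34+Ackr3+ markers the largest higher share (80.2%), against 6.87% and 4.57% of all tested genes.

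Libraries of the same location also differed among themselves. Of 670 named genes called lower in mLN, mLN replicate 2 was the lowest of the 3 mLN libraries for 525 (78.4%), and pLN replicate 2 the lowest of the 3 pLN libraries for 472 (70.4%). For 445 named genes called higher in mLN, pLN replicate 2 was the highest pLN library for 360 (80.9%). Among the mLN libraries these genes had no such order, with replicate 2 highest for 46.1% and lowest for 33.0%. The sum of the T zone and reticular markers was 2445, 1587 and 2379 RPKM in mLN and 21850, 16610 and 20430 RPKM in pLN. That of the CD34+ markers was 22350, 24140 and 23170 RPKM in mLN and 8907, 13830 and 10190 RPKM in pLN. The locations did not overlap in either sum.

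Genes that the study names were compared in GF mice as well. Cxcl13, Gdf6, Sfrp5, Aldh1a2, Ptgis, Isl1, Hoxd1, Meis1, Meis2, Tcf4 and Foxn2 are among its genes with differentially methylated DNA near the start. It names Nkx2-3 for methylation too. Nkx2-3, Cxcl9 and Ccl20 are named as genes whose expression goes with chromatin accessibility, the openness of the DNA at the promoter. Irf3 is named for FRC differentiation, from binding motifs in accessible chromatin, overexpression in a cell line and Irf3-deficient mice. The RNA changes given here test neither methylation nor accessibility. Nkx2-3, Aldh1a2 and Ptgis were higher in mLN and Cxcl9 and Cxcl13 lower, as given above. The transcription factor genes Meis2 (4.09, 3.35 and 4.29 RPKM in mLN and 2.94, 2.99 and 3.28 RPKM in pLN, 0.27 ± 0.13), Tcf4 (9.06, 9.64 and 8.802 RPKM in mLN and 11.4, 10.9 and 10.9 RPKM in pLN, -0.25 ± 0.10) and Foxn2 (4.86, 2.82 and 3.62 RPKM in mLN and 2.501, 2.36 and 2.67 RPKM in pLN, 0.42 ± 0.18) were not called. Irf3, which drives type I interferon, was at 13.1, 17.5 and 14.6 RPKM in mLN and 12.3, 11.7 and 10.4 RPKM in pLN (0.36 ± 0.13, limma adjusted p = 0.0388), under the 2-fold threshold. Gdf6, Sfrp5, Isl1 and Hoxd1 were not among the genes of the deposited table, which was filtered by expression, so they have no value here.

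The location change in GF mice was set beside that in SPF mice, where 1016 genes were called (10.4%). The comparisons share no library, though they share the estimate of spread. Of the 446 genes higher in mLN of GF mice 323 were also called higher in SPF mice (72.4% of the GF list and 82.8% of the SPF list), and of the 671 lower ones 543 (80.9% and 86.7%). No gene was called in opposite directions. Of 251 genes called only in GF mice 249 had the same sign in SPF mice, and for 11 the difference itself was called.

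The difference of the location change, GF minus SPF, was called for 29 genes at adjusted p alone (0.297%), 15 positive and 14 negative. This count rested on single libraries. Among GF mice it was 18 without mLN replicate 1, 13 without mLN replicate 3, 58 without pLN replicate 2 and 19 without pLN replicate 3, and among SPF mice 16 without mLN replicate 1, 15 without mLN replicate 3 and 16 without pLN replicate 3. C7, a component of the membrane attack complex of complement, was at 107, 143 and 118 RPKM in mLN and 14.1, 32.8 and 23.5 RPKM in pLN in GF mice, and its means in SPF mice were 159 RPKM in mLN and 124 RPKM in pLN. The GF change of 2.40 thus stood against 0.35 in SPF mice, a difference of 2.06 ± 0.31 (limma adjusted p = 0.006996). Fbln1 was at 229.7, 206 and 221 RPKM in mLN and 72.9, 99.02 and 72.1 RPKM in pLN in GF mice and at means of 204 and 196 RPKM in SPF mice, a difference of 1.37 ± 0.18 (limma adjusted p = 0.00223). Has1, a hyaluronan synthase, was higher in mLN of GF mice by 2.27 and of SPF mice by 0.57, a difference of 1.70 ± 0.34 (limma adjusted p = 0.045). For these 3 genes the lowest mean of the 4 groups was that of pLN of GF mice. The call of Has1 ended when any single library other than pLN replicate 1 or 2 of GF mice was left out. Without mLN replicate 1 of GF mice, for example, its difference was 1.77 and was not called.

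Other genes had a called difference below or above 0. Cadm1, a cell adhesion molecule, was at 0.973, 0.599 and 0.753 RPKM in mLN and 11.9, 7.55 and 11.3 RPKM in pLN in GF mice and at means of 0.204 and 0.528 RPKM in SPF mice, a difference of -2.31 ± 0.22 (limma adjusted p = 7.04e-05). Il34 had a change of -2.19 in GF and -0.87 in SPF mice, a difference of -1.32 ± 0.20 (limma adjusted p = 0.00886). Trf, the iron carrier transferrin, overlapped between the locations of GF mice at 18.2, 19.3 and 17.5 RPKM in mLN and 19.8, 18.4 and 20.9 RPKM in pLN, and stood at means of 11.9 and 2.9 RPKM in SPF mice (-1.83 ± 0.16, limma adjusted p = 2.399e-05). Ctgf, a CCN family protein, and Col6a5, a collagen VI chain, went from -1.11 and -2.14 in SPF mice to 0.43 and -0.56 in GF mice, with differences of 1.54 ± 0.23 (limma adjusted p = 0.00797) and 1.58 ± 0.30 (limma adjusted p = 0.0312). Cpz, a carboxypeptidase that binds WNT proteins, was lower in both, by -2.32 and -3.73, with a difference of 1.41 ± 0.26 (limma adjusted p = 0.0273). Leaving out single libraries, mLN replicate 1 or 3 of GF mice among them, ended the calls of Cpz and Col6a5, at 1.28 and 1.52 without replicate 3. The largest differences of all, in Ndufa13 (-4.00 ± 0.35) and Eno1 (3.12 ± 0.19), belong to rows whose values could not be read as whole reads, so they are uncertain.

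**Figure D5:**
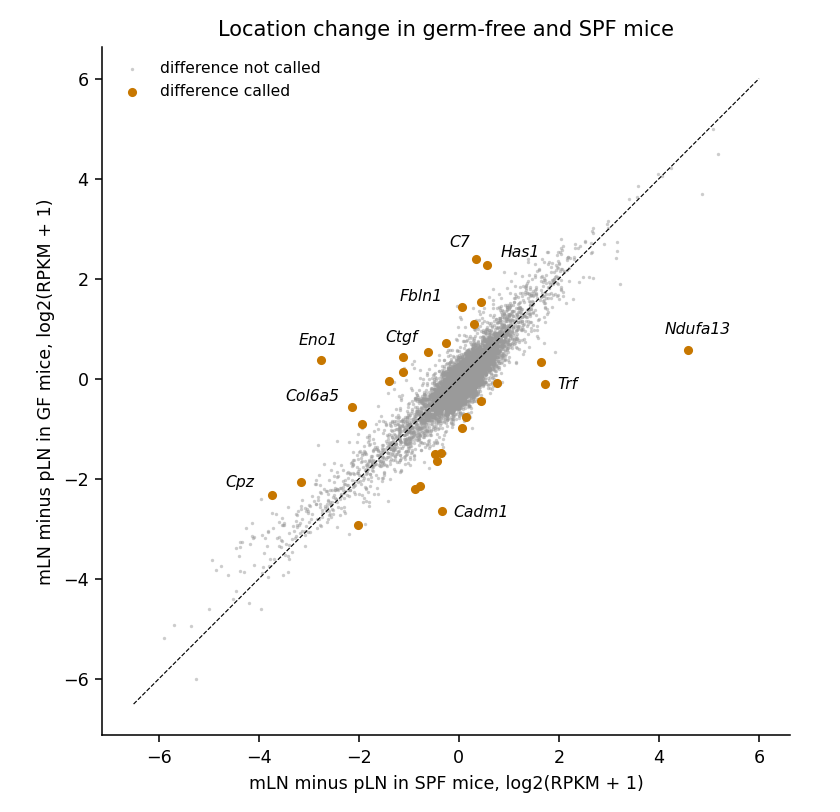
Location change in SPF mice (horizontal) and in GF mice (vertical), both as differences of log2(RPKM + 1), for all tested genes with a usable symbol. Each point is a gene, the dashed line marks equal change, and the 29 genes with a called difference are enlarged. Most genes lie along the line, and the 10 labelled genes lie farthest from it among those called.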

How the data were processed

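RNA was sequenced from sorted SCs of 12 samples, 3 for each location and housing, which were grouped by their titles. Per the labels and methods, cDNA was made with SMART-Seq v4, which does not mark strand, libraries with Nextera XT, and 50-base single reads were run on a HiSeq2500. The submitters' processing notes name TopHat2 (1.2.0), HTSeq (0.12.4), DESeq2 and the mouse build GRCm38. The authors deposited 1 table of RPKM values for 10253 genes, filtered by expression, along with their own fold changes and p-values for 4 pairwise comparisons, which were not used. How reads that match several near-identical genes were counted is not stated. Values of genes with such copies, H2 genes, Ccl21a and Ugt1a6a among them, are therefore uncertain.

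From the RPKM values, log2(RPKM + 1) was computed for the 9764 genes with at least 1 RPKM in at least 3 of the 12 libraries, and 489 genes below that were not tested. Means of the 4 groups were fitted with limma (3.58.1, R 4.3.3) and Benjamini-Hochberg adjustment over all tested genes. The location change in GF mice was called at adjusted p below 0.05 and at least 2-fold, the difference between housings at adjusted p below 0.05. The fit was tested on simulated data. As the unit is RPKM, no count model was the main test. Whole reads could be recovered for 10244 genes (99.9%, within 1e-09 of a whole number), which gave 4.62 to 14.1 M reads per library, and limma-voom on these reads called 1430 genes. Eno1 and Ndufa13 were among the genes without whole reads. A total of 18 symbols that had turned into dates were fitted and not named.

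Named genes were the 15 largest called changes in each direction among genes whose GF mLN and pLN libraries did not overlap. Members of the fixed gene lists, genes the study names and the 10 largest called differences between housings were named too. So were genes under 0.5 RPKM in all GF libraries of 1 location and at 5 RPKM or more in all of the other. The lists and comparisons were chosen with earlier results of these data known. Coordinates come from the GENCODE annotation of GRCm38, and promoter sequences from RefSeq (GRCm38.p6). Tables and figures were made with Python 3.11.15, NumPy 2.4.6, pandas 2.3.3 and matplotlib 3.10.9. Alternatives covered the pseudocount, the filter, rescaling, thresholds, a replicate block, voom and leaving out single libraries.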

Additional observations from a re-analysis of the deposited data

Results flagged for a closer look

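For 12 named genes the location change in GF mice differed from that in SPF mice by the limma test of the difference itself (adjusted p below 0.05). The difference, GF minus SPF on the log2 scale, was 1.37 for Fbln1, 2.06 for C7, 1.70 for Has1, 1.41 for Cpz, 1.54 for Ctgf and 1.58 for Col6a5. It was -2.31 for Cadm1, -1.83 for Trf, -1.32 for Il34 and -0.90 for Spns3, a transporter-like gene that was near 0 RPKM in mLN of GF mice. The call of Spns3 was lost with a pseudocount of 0.1, with voom and without any of several single libraries, as at -0.89 without mLN replicate 1 of GF mice. For Eno1 (3.12) and Ndufa13 (-4.00) the deposited values could not be read as whole reads, and these differences are uncertain. The methods describe the mice as matched for age, although the age ranges given for the housings are not the same. Colony and facility may differ between the housings as well. None of these is given per library, so they cannot be told apart from the microbiota.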

How the results depend on the processing

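The 1117 location calls kept their direction under every alternative run, and between 86.4% and 100% of them were called again. The lower share came from a filter of 5 RPKM, which tests fewer genes. By construction, a 4-fold threshold gave 323 calls (94 higher, 229 lower) and adjusted p alone 3458 (1665 higher, 1793 lower). Leaving out single GF libraries gave 1019 to 1225 calls, of them 404 to 510 higher and 615 to 715 lower. Quantile normalization gave 486 higher and 625 lower. Of the named location changes, Col1a2 turned from -0.13 to 0.63 under quantile normalization and Ptgs2 from 0.20 to between -0.0224 (without pLN replicate 1) and 0.3281 when single libraries were left out, and the cause was not tested. Calls were also lost under quantile normalization by C3 (-0.15), Gbp4 (-0.99), Hoxd9 (-0.95), Ifi44 (-0.997) and Il15 (-0.92), and with voom by Podn (0.998).

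The 29 differences between housings were less stable, with 13 to 58 when single libraries were left out and 21 to 42 under the other alternatives without a block. Of 12 named differences 5 lost the call somewhere, in 45 of 250 alternative values: Has1, Col6a5, Cpz, Spns3 and, with voom, Cadm1. With a replicate block, 1119 location changes and 77 differences were called. The labels do not say that a replicate number marks shared animals or days, and the numbers were taken as pairing the samples only if every same-numbered pair correlated above 0.1. Deviations of same-numbered mLN and pLN libraries correlated at 0.228, 0.217 and 0.0793 in GF mice and at 0.263, 0.456 and 0.182 in SPF mice, so 1 of the 6 pairs missed it, and the design was left without the block. Each GF library correlated best with its own number, which is a hint from the data and not the design, whereas mLN replicate 1 of SPF mice correlated best with pLN replicate 3 (0.303). Depth limits genes near 1 RPKM most in pLN replicate 3 of GF mice, with 4.62 M reads.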
